A study of Mus musculus with 6 samples.

Results

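Copying a genome once per cell cycle takes a set of genes that load the replicative helicase at origins, switch it on, build the new strands and supply the nucleotides. In G1 the origin recognition complex, Cdc6 and Cdt1 load the ring of Mcm2 to Mcm7 onto DNA, and geminin, the product of Gmnn, later holds Cdt1 back. At the start of S phase Cdc45 and the GINS complex join the ring, and primase, polymerases, the sliding clamp and its loader follow. Many of these genes are transcribed by E2F factors at the G1/S boundary, and haematopoietic stem cells (HSCs) of adult marrow are known to be mostly out of cycle. The 39 genes described here were taken from a list of such genes and matched by symbol to the Ensembl gene IDs of the table; all 39 were found among 28786 IDs. They were placed in 5 role groups: 11 of origin licensing, 5 of GINS, Cdc45 and helicase activation, 12 of polymerases, clamp and lagging strand, 5 of nucleotide supply and 6 of G1/S control and chromatin.

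RNA was measured in 3 TMRM-high and 3 TMRM-low libraries, all from C57BL/6 wild type animals that were 6 to 8 weeks old. TMRM is a dye that gathers in mitochondria according to their membrane potential, and the comparison asks how HSCs with a high dye signal differ in RNA from HSCs with a low one. Each library came from 1500 bone marrow cells sorted without lineage markers or CD48 and with Sca-1, c-Kit and CD150. The labels do not say which mice, or how many, went into a library, so p-values measure the spread between these libraries, which may be technical. In such bulk samples, fewer cells in S phase and less RNA per cell cannot be told apart.

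Totals of the estimated counts were 14270069 to 22070594 in TMRM-high libraries, against 15930495 to 18431567 in TMRM-low libraries. Levels are in CPM, counts per 1000000 of the TMM-scaled library, and differences are log2 fold changes, TMRM-high minus TMRM-low, from edgeR's quasi-likelihood test over 13662 genes with Benjamini-Hochberg adjustment and a threshold of 0.05. Pairs of TMRM-high libraries were much more alike over the 39 genes than pairs of TMRM-low libraries, with a chi-square per degree of freedom of 3.92 to 8.49 for TMRM-high pairs, against 52.5 to 62.5 for TMRM-low pairs (about 1 from counting noise alone). The model takes 1 spread for both groups. Of 15 HSC identity genes, 1 rose and 6 fell in TMRM-high libraries, where 5.84% of all genes tested were higher and 5.12% lower. The 1 that rose was Gata2 (log2 fold change 0.62, SE 0.09). None of the 15 was at 0 throughout a group. Their sum was 863.1 to 867.8 CPM in TMRM-high libraries, against 1145 to 1215 CPM in TMRM-low libraries. Ly6a, which encodes Sca-1, had 28.2 to 32.6 CPM in TMRM-high libraries, against 163 to 177 CPM in TMRM-low libraries. Cd48, which the gate excludes, had more CPM than Slamf1, which encodes CD150, in every library. Neither passed (log2 fold change 0.11, adjusted p = 0.65 for Cd48, and 0.11, adjusted p = 0.94 for Slamf1). Kit, which encodes c-Kit, did not pass either (0.08, adjusted p = 0.78).

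Few of the replication genes passed the test, and those that did moved in both directions. Of the 39, all of which passed the low-count filter, 3 were higher in TMRM-high libraries (Rrm2, Pcna and Gmnn), 1 was lower (Mcm5) and 35 did not pass. That is 10.3% called, against 11% of all genes tested (5.84% higher and 5.12% lower), so the share called was near the background. The median log2 fold change of the 39 was 0.15, against -0.03 over all genes tested, and 29 of 39 (74.4%) lay above 0, against 47.2% of all genes tested. Without TMRM-low replicate 2 the median of the 39 was 0.09 and 23 lay above 0. Fen1 and Mcm2 sit so close to 0 that their sign turns with the scaling (Fen1 -0.01 with upper-quartile, Mcm2 0.00 with total-count scaling). In 11 of 39 all TMRM-high libraries lay above all TMRM-low ones (18.4% of all genes tested) and in 5 all lay below (17% of all), together 41%, against 35.4% of all genes tested. An unadjusted p below 0.05 was reached by 12 of 39, against 25.6% of all genes tested. The summed CPM of the 39 was 5621, 5710 and 5661 in TMRM-high libraries, against 5438, 4987 and 5315 in TMRM-low libraries, so that every TMRM-high sum was the higher.

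**Figure D1:**
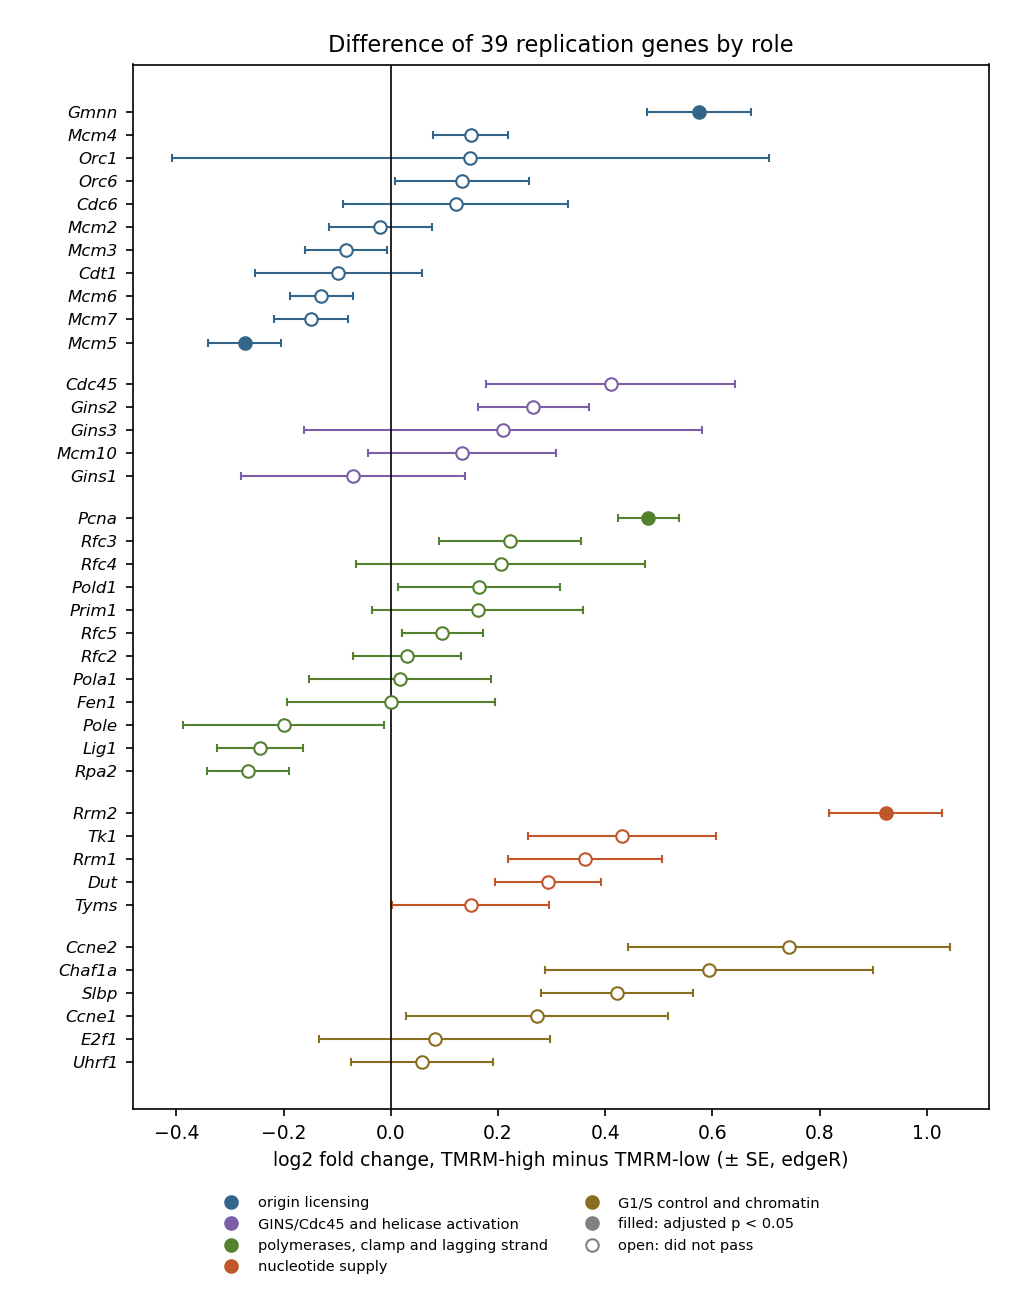
Log2 fold change of each of the 39 genes with its standard error from edgeR, grouped and coloured by role; filled points passed an adjusted p of 0.05. Of the 5 nucleotide supply genes all points lie right of 0, while of Mcm2 to Mcm7 all but Mcm4 lie left of it (Mcm2 moves to 0.00 with total-count scaling).

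Promoters of Mcm5 and Rrm2, the members that moved furthest in each direction among those called, and of Mcm6 are shown because they hold the E2F and CCAAT letters in different ways; Mcm6 was chosen after its sequence was seen. They are RefSeq sequences on GRCm38.p6, read 5′ to 3′ on the strand of the gene. Mcm5 and Mcm6 end at the base before the RefSeq start, and Rrm2 ends 13 bases short of it, where the GENCODE gene begins. Capitals mark the E2F words TTTCCCGC, TTTGGCGC, TTTCGCGC and TTTGCCGC and the CCAAT box, on either strand.
Rrm2 promoter, chr12:24708004-24708240, + strand: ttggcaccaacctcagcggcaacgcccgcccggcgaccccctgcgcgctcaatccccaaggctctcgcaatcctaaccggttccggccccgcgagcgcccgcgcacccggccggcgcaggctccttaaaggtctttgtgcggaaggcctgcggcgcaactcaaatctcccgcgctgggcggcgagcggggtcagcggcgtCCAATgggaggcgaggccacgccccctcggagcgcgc
Mcm5 promoter, chr8:75109259-75109508, + strand: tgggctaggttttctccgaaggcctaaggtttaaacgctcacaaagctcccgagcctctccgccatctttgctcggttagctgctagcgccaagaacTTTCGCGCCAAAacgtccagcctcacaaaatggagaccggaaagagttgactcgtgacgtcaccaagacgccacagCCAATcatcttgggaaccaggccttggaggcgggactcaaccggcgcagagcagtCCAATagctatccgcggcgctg
Mcm6 promoter, chr1:128359706-128359955, - strand: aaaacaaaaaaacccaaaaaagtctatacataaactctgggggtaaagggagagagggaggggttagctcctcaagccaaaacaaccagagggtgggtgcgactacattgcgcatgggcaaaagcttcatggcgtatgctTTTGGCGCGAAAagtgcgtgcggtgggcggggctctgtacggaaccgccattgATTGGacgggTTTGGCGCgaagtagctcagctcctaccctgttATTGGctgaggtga

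In Mcm5 the words TTTCGCGC and, on the opposite strand, TTTGGCGC overlap as TTTCGCGCCAAA, between 153 and 142 bases before the start. Mcm6 holds the same letters on the opposite strand, TTTGGCGCGAAA, between 110 and 99 bases before its start, and a further TTTGGCGC nearer to it. Of 27025 genes with a promoter in the RefSeq table, 4 (0.0148%) held this run within 250 bases before a start, 2 of them Mcm5 and Mcm6. At least 1 of the 4 E2F words was present in 9 of the 32 members with a promoter (28.1%), in 13 of 60 other pathway genes (21.7%) and in 583 of the 27025 genes (2.16%). CCAAT, on either strand, was present in 20 of the 32 members (62.5%), against 37.5% of all genes, and TTTGAA on either strand, the core of the CHR element of late cell cycle genes, in 4 of the 32 (12.5%), against 18.3% of all genes. Among the 10242 tested genes with a promoter, all members being tested genes, the shares were 3.8% for the E2F words, 40.7% for CCAAT and 13.2% for TTTGAA. In the mitotic genes described further below, an E2F word was present in 1 of 22, TTTGAA in 9 of 22 (40.9%) and CCAAT in 19 of 22 (86.4%). Rrm2 held a CCAAT box and no E2F word in this window. Windows counted from a RefSeq start can hold transcribed bases where GENCODE places the start of the gene earlier. These matches describe letters and do not show that a factor binds.

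Rrm2 showed the largest difference of the 39 and belongs to nucleotide supply, where every member had a log2 fold change above 0 (Tyms was at -0.01 without TMRM-low replicate 2). Rrm2 encodes the small subunit of ribonucleotide reductase, which makes deoxyribonucleotides and whose amount follows S phase (ENSMUSG00000020649, chromosome 12, 24708241 to 24714146 on GRCm38, GENCODE M21). It had 195, 189 and 206 CPM in TMRM-high libraries, against 110, 89.1 and 112 CPM in TMRM-low libraries. All TMRM-high libraries stood above all TMRM-low ones, and the log2 fold change was 0.92 (SE 0.11, adjusted p = 0.00175), a 1.9-fold higher level. Of its 31-base words, 12.8% also occur in transcripts of other genes, the largest share with the processed pseudogene Gm48455. That pseudogene is not among the deposited IDs, and 4.34% of the words are shared with genes that are.

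Rrm1, the large subunit of the same enzyme, had 254, 294 and 279 CPM in TMRM-high libraries, against 216, 171 and 257 CPM in TMRM-low libraries. The lowest TMRM-high library and the highest TMRM-low library overlapped. The log2 fold change of 0.36 (SE 0.14) did not pass (adjusted p = 0.16) except without TMRM-low replicate 3 (0.52, adjusted p = 0.0333). That library was the highest of its group, so leaving it out raises the difference by construction. Over 15 alternatives the log2 fold change of Rrm1 ran from 0.22 to 0.52. The CPM ratio of Rrm2 to Rrm1, which no scaling between libraries can change, was 0.715 ± 0.0659 in TMRM-high libraries, against 0.489 ± 0.0482 in TMRM-low libraries (SD, n = 3 each), without overlap; this ratio and those below were chosen after the values were seen and are given with no test. Tk1, the cytosolic thymidine kinase, had 87.0, 83.4 and 94.4 CPM in TMRM-high libraries, against 51.3, 81.9 and 63.1 CPM in TMRM-low libraries. TMRM-low replicate 2 came close to the TMRM-high libraries, and Tk1 did not pass (log2 fold change 0.43, SE 0.18, adjusted p = 0.17) except without that library (0.63, adjusted p = 0.0273). Leaving it out likewise raises the difference by construction, and over 15 alternatives the log2 fold change of Tk1 ran from 0.29 to 0.63.

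Dut encodes the dUTPase that keeps uracil out of DNA. It had 201, 202 and 210 CPM in TMRM-high libraries, against 180, 144 and 176 CPM in TMRM-low libraries, again with no overlap but not passing (0.29, SE 0.10, adjusted p = 0.11) except with DESeq2 (0.29, adjusted p = 0.0462). Tyms, thymidylate synthase, had 129 to 131 CPM in TMRM-high libraries, against 90.4 to 131 CPM in TMRM-low libraries, so that its groups met, with a log2 fold change of 0.15 (SE 0.15). Summed over the 5 genes, nucleotide supply took 866, 899 and 921 CPM in TMRM-high libraries, against 688, 576 and 739 CPM in TMRM-low libraries.

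Pcna, the ring-shaped clamp that holds DNA polymerases on their template, was the most abundant of the 39 per length of transcript and the second gene that rose (ENSMUSG00000027342, chromosome 2, 132249162 to 132253314). It had 448, 463 and 436 CPM in TMRM-high libraries, against 322, 312 and 332 CPM in TMRM-low libraries. The groups were well apart, with a log2 fold change of 0.48 (SE 0.06, adjusted p = 0.00200). Of its 31-base words, 23.3% occur in the processed pseudogene Pcna-ps2, to which the quantification gave at most 0.231 CPM in any library.

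Of the clamp loader that opens the Pcna ring, no subunit passed. Rfc2, Rfc3, Rfc4 and Rfc5 had log2 fold changes of 0.03 to 0.22; whether these differ from that of Pcna was not tested. Rfc2 had 298 to 316 CPM in TMRM-high libraries, against 271 to 348 CPM in TMRM-low libraries, and Rfc3 had 68.1 to 76.9 CPM in TMRM-high libraries, against 54.7 to 70.0 CPM in TMRM-low libraries, so that both overlapped. Rfc5 had 129, 131 and 131 CPM in TMRM-high libraries, against 120, 121 and 124 CPM in TMRM-low libraries. These groups do not overlap, but the log2 fold change was 0.10 (SE 0.08, adjusted p = 0.49). Rfc4 spread from 45.4 to 102 CPM among TMRM-low libraries, and its 78.5 to 80.8 CPM in TMRM-high libraries lay inside that range. Its log2 fold change of 0.21 was 0.60 (adjusted p = 0.0383) without TMRM-low replicate 1 and -0.02 without TMRM-low replicate 2. The CPM ratio of Pcna to the sum of the 4 loader genes was 0.765 ± 0.0316 in TMRM-high libraries, against 0.588 ± 0.0638 in TMRM-low libraries (SD, n = 3 each), with no overlap.

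None of the polymerase and primase genes passed. Pola1, the catalytic subunit of polymerase alpha, had 73.7 to 75.1 CPM in TMRM-high libraries, against 62.5 to 94.1 CPM in TMRM-low libraries. Prim1, the primase subunit that starts each new strand, had 83.7 to 84.3 CPM in TMRM-high libraries, against 51.8 to 87.4 CPM in TMRM-low libraries. Pole and Pold1, the catalytic subunits of the leading and lagging strand polymerases, had log2 fold changes of -0.20 (SE 0.19) and 0.16 (SE 0.15). Pole had 40.3 to 49.5 CPM in TMRM-high libraries, against 39.3 to 57.7 CPM in TMRM-low libraries, and Pold1 had 106 to 128 CPM in TMRM-high libraries, against 85.5 to 125 CPM in TMRM-low libraries. In all of these the TMRM-low libraries spanned or met the TMRM-high ones, and no adjusted p was below 0.56.

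Of the lagging strand genes, a pair lay lower in TMRM-high libraries without passing. Rpa2, a subunit of the protein that coats single-stranded DNA, had 132, 130 and 133 CPM in TMRM-high libraries, against 157, 152 and 166 CPM in TMRM-low libraries (log2 fold change -0.27, SE 0.08, adjusted p = 0.0652). Lig1, the ligase that joins Okazaki fragments, had 179, 176 and 168 CPM in TMRM-high libraries, against 221, 190 and 208 CPM in TMRM-low libraries (-0.24, SE 0.08, adjusted p = 0.10). In both genes all TMRM-high libraries lay below all TMRM-low ones, and both passed with DESeq2 (adjusted p = 0.0091 for Rpa2 and 0.0419 for Lig1) and without TMRM-low replicate 2 (0.0346 and 0.0317). Fen1, the flap nuclease, had 121 to 123 CPM in TMRM-high libraries, against 83.4 to 147 CPM in TMRM-low libraries. Of the 31-base words of Fen1, 79.6% occur in other transcripts, mostly of the antisense gene Gm10143, so the count of Fen1 is uncertain. Gm10143 is not among the deposited IDs, and 2.86% of the words are shared with genes that are.

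**Figure D2:**
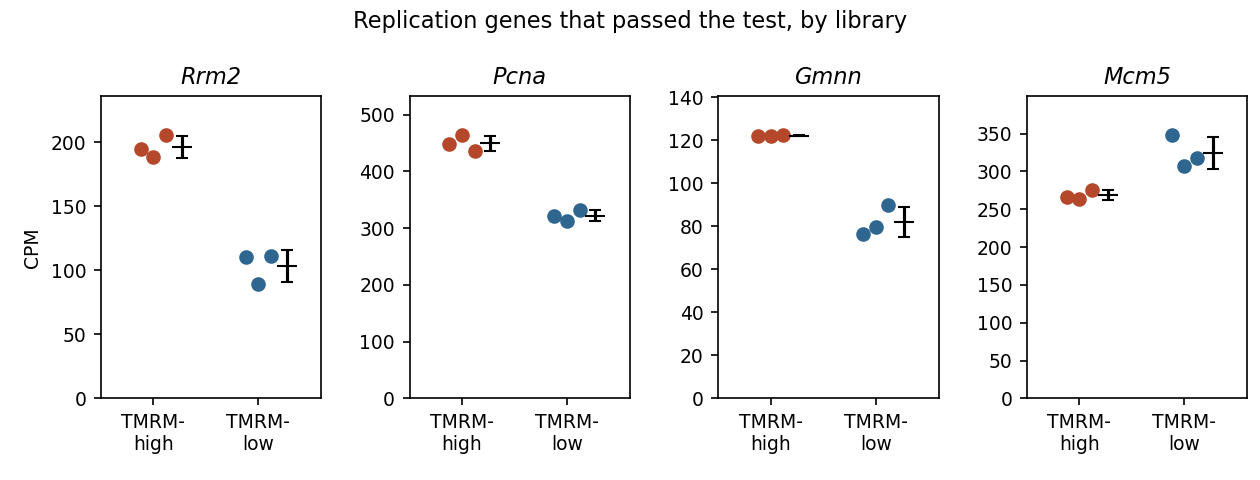
CPM of the 4 genes that passed the test, with 1 point per library and the mean ± SD of 3 libraries beside each group; the axes start at 0. Rrm2, Pcna and Gmnn lie higher in TMRM-high libraries and Mcm5 lies lower, with no overlap in any of them.

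Of the 11 licensing genes, 1 rose, the inhibitor, and 1 fell, a helicase subunit. Gmnn, geminin, was the third gene that rose (ENSMUSG00000006715, chromosome 13, 24751845 to 24761923), with 122 CPM in each of the 3 TMRM-high libraries, against 76.3, 79.7 and 89.8 CPM in TMRM-low libraries. The log2 fold change was 0.57 (SE 0.10, adjusted p = 0.00968). It did not pass with any 1 TMRM-high library left out (adjusted p = 0.0698 without replicate 1, 0.0740 without replicate 2 and 0.0757 without replicate 3), while its log2 fold change stayed at 0.58. Cdt1, the loading factor that geminin binds, had 94.8, 77.6 and 86.9 CPM in TMRM-high libraries, against 90.6, 76.0 and 111 CPM in TMRM-low libraries. Those groups overlap throughout (log2 fold change -0.10, SE 0.16), and the CPM ratio of Gmnn to Cdt1 was 1.42 ± 0.144 in TMRM-high libraries, against 0.901 ± 0.130 in TMRM-low libraries (SD, n = 3 each), with no overlap.

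Mcm5, a subunit of the helicase ring, was the 1 gene that fell (ENSMUSG00000005410, chromosome 8, 75109569 to 75128439). It had 266, 264 and 276 CPM in TMRM-high libraries, against 348, 307 and 318 CPM in TMRM-low libraries. All TMRM-high libraries lay below all TMRM-low ones, with a log2 fold change of -0.27 (SE 0.07, adjusted p = 0.0429). This call was lost in 7 of 15 alternatives, among them leaving out TMRM-high replicate 1 (adjusted p = 0.192), 2 (0.212) or 3 (0.162) or TMRM-low replicate 1 (0.0520).

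The other ring subunits did not pass. Mcm6 had 391, 424 and 396 CPM in TMRM-high libraries, against 455, 432 and 438 CPM in TMRM-low libraries (log2 fold change -0.13, SE 0.06). Mcm7 had 307, 310 and 312 CPM in TMRM-high libraries, against 336, 371 and 323 CPM in TMRM-low libraries (-0.15, SE 0.07). Both were lower in every TMRM-high library, as Mcm5 was. Of the 31-base words of Mcm7, 33.4% occur in other transcripts, mostly of the pseudogene Gm5487. That pseudogene is not among the deposited IDs, and 6.52% of the words are shared with genes that are. Mcm4 lay the other way, at 187, 192 and 192 CPM in TMRM-high libraries, against 166, 169 and 179 CPM in TMRM-low libraries (0.15, SE 0.07). Mcm3 (343 to 362 CPM in TMRM-high libraries, against 340 to 406 CPM in TMRM-low libraries) and Mcm2 (181 to 197 CPM in TMRM-high libraries, against 168 to 209 CPM in TMRM-low libraries) overlapped between the groups.

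Summed, Mcm2 to Mcm7 took 1683, 1748 and 1710 CPM in TMRM-high libraries, against 1911, 1787 and 1839 CPM in TMRM-low libraries. Every TMRM-high library lay below every TMRM-low one in this sum, while the sum of the 5 nucleotide supply members lay above. The ratio of the nucleotide supply sum to the ring sum was 0.522 ± 0.0137 in TMRM-high libraries, against 0.361 ± 0.0397 in TMRM-low libraries (SD, n = 3 each). Mcm5 over the sum of its 5 partners was 0.186 ± 0.00747 in TMRM-high libraries, against 0.213 ± 0.00817 in TMRM-low libraries, again without overlap.

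**Figure D3:**
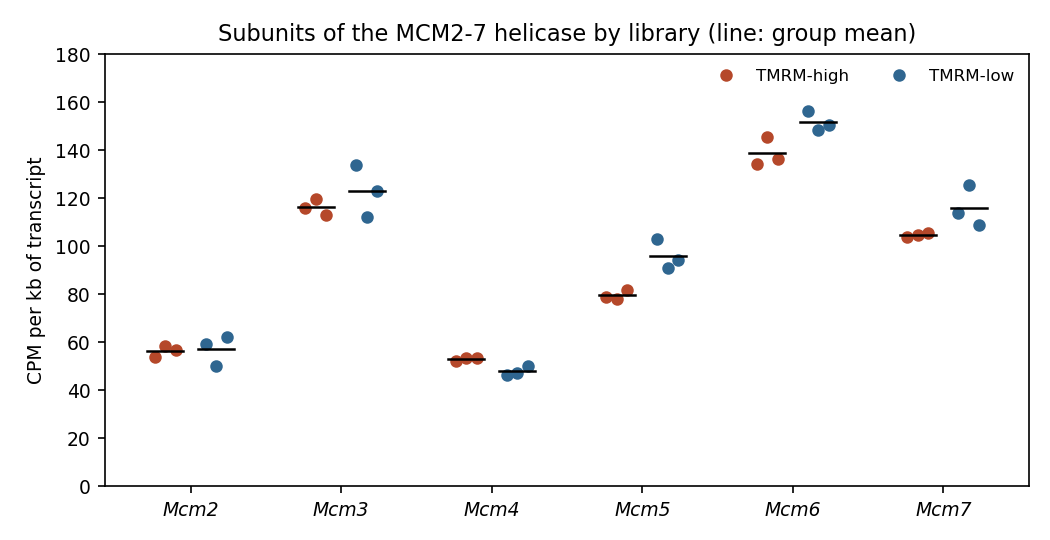
CPM per kb of the principal transcript for each subunit of the Mcm2 to Mcm7 ring, with 1 point per library and a line at the group mean. Mcm5, Mcm6 and Mcm7 lie lower in every TMRM-high library, Mcm4 lies higher, and Mcm2 and Mcm3 overlap.

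Although 1 copy of each subunit makes up the ring, the 6 RNAs were not equally abundant per length. In CPM per kb of the principal transcript, Mcm6 was the highest, at 139 ± 6.08 in TMRM-high libraries, against 152 ± 4.07 in TMRM-low libraries (SD, n = 3 each). Mcm3 followed at 116 ± 3.12 in TMRM-high libraries, against 123 ± 11.0 in TMRM-low libraries, and Mcm7 at 105 ± 0.878 in TMRM-high and 116 ± 8.42 in TMRM-low. These neighbours in the order, Mcm3 and Mcm7, did not differ beyond their spread in TMRM-low libraries. Mcm5 stood at 79.4 ± 1.88 in TMRM-high libraries, against 95.9 ± 6.19 in TMRM-low libraries, Mcm2 at 56.3 ± 2.39 in TMRM-high and 57.0 ± 6.33 in TMRM-low, and Mcm4 at 53.0 ± 0.799 in TMRM-high and 47.8 ± 1.89 in TMRM-low. Per kb of all exons of the gene the order was Mcm3, Mcm6, Mcm5, Mcm7, Mcm4 and Mcm2, so places depend on the length used.

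None of the loaders upstream of the ring passed. Orc1, the subunit of the origin recognition complex that varies with the cycle, was the lowest of the 39 per kb of the principal transcript (Pole was the lowest per kb of all exons). It had 13.6, 14.8 and 19.7 CPM in TMRM-high libraries, against 11.8, 4.81 and 26.8 CPM in TMRM-low libraries. Its TMRM-low libraries held both the highest and the lowest value, and the log2 fold change of 0.15 had an SE of 0.56. Orc6, another subunit of that complex, had 79.1 to 86.7 CPM in TMRM-high libraries, against 67.2 to 84.9 CPM in TMRM-low libraries, and Cdc6, the loader that follows it, had 41.6 to 48.1 CPM in TMRM-high libraries, against 34.1 to 53.4 CPM in TMRM-low libraries. In both genes the groups overlapped.

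Genes that switch the loaded ring on had 4 of 5 log2 fold changes above 0, against 47.2% of all genes tested, and none that passed. Over 15 alternatives Gins3 ran from -0.11 to 0.47, and Gins1, the 1 below 0, from -0.26 to 0.08. Cdc45, which rides with the ring and GINS as the active helicase, had 54.5, 56.1 and 58.3 CPM in TMRM-high libraries, against 33.9, 34.0 and 59.1 CPM in TMRM-low libraries. TMRM-low replicate 3 alone reached the TMRM-high level, and without it the log2 fold change of 0.41 (SE 0.23, adjusted p = 0.325) became 0.73 (adjusted p = 0.0111). Leaving out the library that overlaps raises the difference by construction. Over 15 alternatives the log2 fold change of Cdc45 ran from 0.28 to 0.73, and it passed in 1. Gins2 had 140, 141 and 129 CPM in TMRM-high libraries, against 120, 120 and 99.8 CPM in TMRM-low libraries. Its groups do not overlap (0.27, SE 0.10, adjusted p = 0.15), but 66.2% of its 31-base words are shared with Gse1 on the opposite strand, so the reads cannot be assigned with certainty.

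Gins1, the most abundant of these 5 per kb of the principal transcript (Gins2 per kb of all exons), had 44.3, 46.4 and 40.6 CPM in TMRM-high libraries, against 50.4, 32.7 and 54.7 CPM in TMRM-low libraries (log2 fold change -0.07, SE 0.21). Gins3, which like Gins1 encodes a GINS subunit, had 15.4 to 17.8 CPM in TMRM-high libraries, against 7.24 to 19.03 CPM in TMRM-low libraries. Mcm10, which acts with the helicase when it fires and is no part of the ring, had 37.5 to 41.9 CPM in TMRM-high libraries, against 29.5 to 40.9 CPM in TMRM-low libraries. In each of these 3 the groups overlapped.

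The genes of G1/S control and chromatin all had log2 fold changes above 0, and none passed; E2f1 (-0.09) and Uhrf1 (-0.08) lay below 0 without TMRM-low replicate 1. Ccne2, a cyclin E that activates Cdk2 at the G1/S boundary, had 33.0, 40.4 and 38.4 CPM in TMRM-high libraries, against 14.3, 32.5 and 20.1 CPM in TMRM-low libraries. TMRM-low replicate 2 lay just under the TMRM-high libraries, the log2 fold change was 0.74 (SE 0.30, adjusted p = 0.17), and it was 1.12 (adjusted p = 0.0219) without that library. Leaving out the library nearest to the other group raises the difference by construction. Over 15 alternatives the log2 fold change of Ccne2 ran from 0.51 to 1.12, and it passed in 1. Ccne1, the other cyclin E, had 18.7 to 22.6 CPM in TMRM-high libraries, against 13.3 to 20.1 CPM in TMRM-low libraries. E2f1, a transcription factor of G1/S genes, had 65.1 to 67.1 CPM in TMRM-high libraries, against 46.6 to 85.1 CPM in TMRM-low libraries.

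Slbp encodes the protein that binds the stem-loop of replication-dependent histone mRNAs. It had 237, 256 and 250 CPM in TMRM-high libraries, against 225, 182 and 148 CPM in TMRM-low libraries, with no overlap and a log2 fold change of 0.42 (SE 0.14, adjusted p = 0.11). It passed with limma voom (adjusted p = 0.0236), with DESeq2 (0.0309) and without TMRM-low replicate 1 (0.0172). Chaf1a, the large subunit of the chromatin assembly factor that places histones behind the fork, had 77.9, 60.1 and 64.0 CPM in TMRM-high libraries, against 51.2, 58.7 and 24.2 CPM in TMRM-low libraries (0.59, SE 0.31, adjusted p = 0.28). TMRM-low replicate 3 was the lowest, and without it the log2 fold change was 0.30. Of the 31-base words of Chaf1a, 51.0% are shared with other genes, nearly all with Ubxn6 on the opposite strand. Uhrf1, which guides maintenance methylation of new DNA, had 185 to 195 CPM in TMRM-high libraries, against 144 to 208 CPM in TMRM-low libraries.

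Per kb of the principal transcript, after Pcna at 296 ± 9.07 CPM per kb in TMRM-high libraries, against 212 ± 6.62 in TMRM-low libraries, the highest levels were those of Mcm6, Mcm3, Slbp and Mcm7. Per kb of all exons Pcna stayed first, and Slbp ranked 16 in place of 4. Slbp stood at 130 ± 5.24 CPM per kb in TMRM-high libraries, against 96.9 ± 20.3 in TMRM-low libraries. Rrm2 stood at 89.6 ± 3.82 CPM per kb in TMRM-high libraries, against 47.2 ± 5.73 in TMRM-low libraries, and Dut led nucleotide supply at 105 ± 2.54 in TMRM-high and 85.4 ± 10.2 in TMRM-low. At the low end were Orc1 (5.32 ± 1.08 CPM per kb in TMRM-high libraries, against 4.79 ± 3.73 in TMRM-low libraries), Gins3 (6.57 ± 0.466 in TMRM-high and 5.69 ± 2.48 in TMRM-low) and Pole (6.26 ± 0.641 in TMRM-high and 7.18 ± 1.47 in TMRM-low). These 3 did not differ from each other beyond their spread in TMRM-low libraries.

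**Figure D4:**
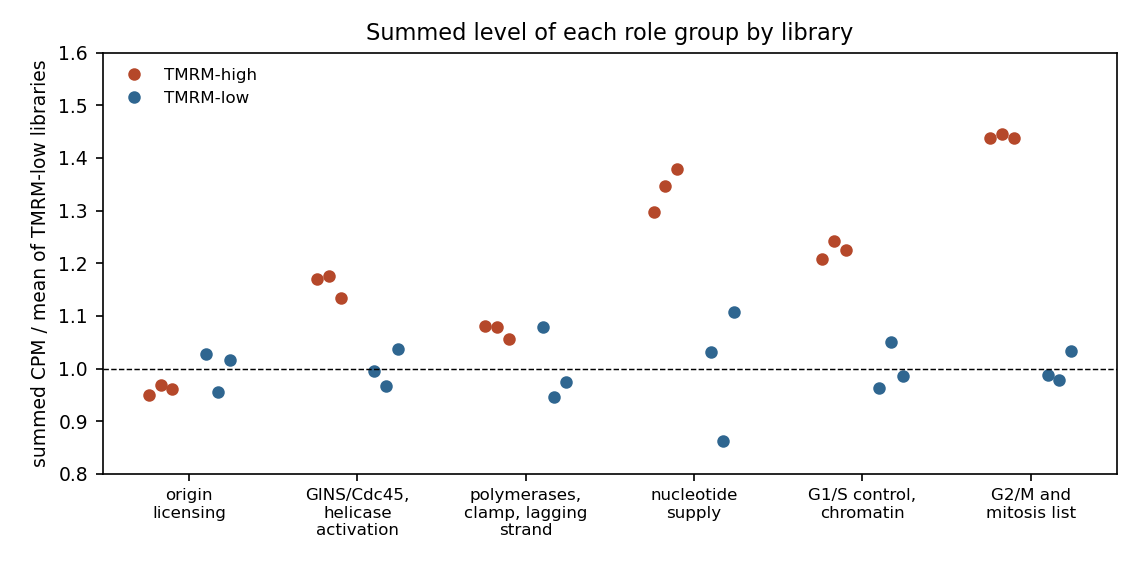
Summed CPM of each role group and of a list of 25 mitotic genes in each library, divided by the mean of the 3 TMRM-low libraries (axis from 0.8 to 1.6, so distances from 1 are enlarged); sums follow the abundant members. Nucleotide supply ran from 1.3 to 1.38 in TMRM-high libraries and the mitotic genes from 1.44 to 1.45, while origin licensing stayed at 0.949 to 0.969. G1/S control and chromatin (1.21 to 1.24) and GINS, Cdc45 and helicase activation (1.13 to 1.18) also lay above every TMRM-low library. Polymerases, clamp and lagging strand (1.06 to 1.08) overlapped with the TMRM-low libraries.

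Repeats were closer among TMRM-high libraries. The members' median coefficient of variation was 4.03% in TMRM-high libraries, against 18.9% in TMRM-low libraries. Over all genes tested with a mean of at least 5 CPM it was 6.18% in TMRM-high libraries, against 22.4% in TMRM-low libraries. The members' coefficient was larger in TMRM-low libraries for 38 of the 39. In the TMRM-low group, replicate 3 held the highest value for 20 of the 39 and replicate 2 the lowest for 20. Estimated counts behind the values ran from 77 to 9886 per gene and library. Over the 39 genes together, TMRM-low pairs differed by more than read counting alone, with a chi-square per degree of freedom of 52.5 to 62.5. For single genes the part of counting error was not tested, and reads of amplified cDNA do not count molecules. At least 50% of the words were shared with other genes in 3 members, Fen1, Gins2 and Chaf1a, and 15 members have exons that overlap a gene on the opposite strand, in libraries that do not mark strand.

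A list of 74 other genes of the same pathway was chosen with earlier results of these data known. Of these, 9 were higher, 2 were lower and 63 did not pass, with a median log2 fold change of 0.20. Over all genes tested, 5.84% were higher and 5.12% were lower, and the median was -0.03. The list's 11 nucleotide supply genes had sums of 1091 to 1134 CPM in TMRM-high libraries, against 1015 to 1172 CPM in TMRM-low ones. These sums overlap, as do those of its 24 G1/S control and chromatin genes (3551 to 3643 CPM, against 3349 to 3651 CPM). Its 20 licensing and firing genes (1261 to 1328 CPM, against 999 to 1129 CPM) lay higher without overlap. So did its 19 polymerase, clamp and lagging strand genes (1273 to 1299 CPM, against 1011 to 1190 CPM). Ccna2, the cyclin A of S and G2 phase, had 161, 164 and 171 CPM in TMRM-high libraries, against 96.2, 119 and 101 CPM in TMRM-low libraries (0.65, SE 0.10, adjusted p = 0.00718). Asf1b, a histone chaperone of dividing cells, had 80.9, 75.4 and 87.2 CPM in TMRM-high libraries, against 43.5, 36.2 and 48.4 CPM in TMRM-low libraries (0.93, SE 0.15). Rpa3, the small partner of Rpa2, had 85.4, 90.5 and 82.4 CPM in TMRM-high libraries, against 42.6, 42.1 and 56.7 CPM in TMRM-low libraries (0.87, SE 0.15), opposite in sign to Rpa2.

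The 2 that fell act before S phase. Ccnd2, a cyclin D of G1, had 265, 246 and 257 CPM in TMRM-high libraries, against 421, 395 and 349 CPM in TMRM-low libraries (log2 fold change -0.60, SE 0.08, adjusted p = 0.00400). Cdk4, its kinase partner, had 458, 442 and 449 CPM in TMRM-high libraries, against 604, 503 and 594 CPM in TMRM-low libraries (-0.33, SE 0.08, adjusted p = 0.0335). Ccnd3, another cyclin D, and Cdk6, the other kinase of G1, rose (0.52, SE 0.11, and 0.23, SE 0.06). So did Tipin, of the fork protection complex (0.57), Cdc7, the kinase that fires origins (0.66), Pole4, an accessory subunit of polymerase epsilon (0.59), and the E2F repressor E2f8 (0.77). With any 1 TMRM-high library left out, 0 to 2 of these 74 were called higher and 1 lower, and without TMRM-low replicate 1 these numbers were 17 and 1.

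The mitotic list holds G2/M and mitosis genes and the general cycling marker Mki67, so it is not confined to steps after replication. Of 25 measured, 13 were higher and none was lower, all 25 had a log2 fold change above 0, and their median was 0.50. Of all genes tested, 5.84% were higher, 5.12% were lower and 47.2% had a log2 fold change above 0. Ube2c, a ubiquitin-conjugating enzyme that works with the anaphase-promoting complex, had 200.1, 198 and 198 CPM in TMRM-high libraries, against 83.8, 82.9 and 90.8 CPM in TMRM-low libraries (1.21, SE 0.08, adjusted p = 0.000105). Anln, a scaffold of the cleavage furrow, had 26.9, 30.2 and 28.1 CPM in TMRM-high libraries, against 3.01, 2.00 and 5.01 CPM in TMRM-low libraries (3.08, SE 0.37). Mki67, a marker of cycling cells, had 295, 289 and 295 CPM in TMRM-high libraries, against 216, 210 and 194 CPM in TMRM-low libraries (0.50, SE 0.07). The summed CPM of the mitotic list over that of the 39 replication genes was 0.517 ± 0.00267 in TMRM-high libraries, against 0.388 ± 0.0159 in TMRM-low libraries, without overlap.

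Markers of other blood cells moved with the groups. The shares to set beside their counts are 5.84% higher and 5.12% lower over all genes tested. Of 14 granulocyte and monocyte genes, 13 were higher, and their sum was 16420 to 16800 CPM in TMRM-high libraries, against 4094 to 4397 CPM in TMRM-low libraries. Of 13 B lymphoid genes, 11 were higher, with a sum of 2103 to 2120 CPM in TMRM-high libraries, against 555.5 to 633.7 CPM in TMRM-low libraries, and Vpreb2 had no count in TMRM-low libraries. Sums of 9 mast cell, basophil and eosinophil genes were 309 to 324 CPM in TMRM-high libraries, against 56.4 to 70.5 CPM in TMRM-low libraries, where Epx had no count. Of 13 erythroid genes 7 were higher and 1 was lower, with sums of 650.9 to 675.7 CPM in TMRM-high libraries, against 642.7 to 780.2 CPM in TMRM-low libraries, which overlap. Without Car2, which fell and is the most abundant, the other 12 summed to 336 to 367 CPM in TMRM-high libraries, against 122 to 165 CPM in TMRM-low libraries. Megakaryocyte genes (8 tested, 2 higher) summed to 456 to 466 CPM in TMRM-high libraries, against 132 to 160.3 CPM in TMRM-low libraries. T and NK genes (9 tested, 1 higher and 4 lower) summed to 620.5 to 630 CPM in TMRM-high libraries, against 352 to 433 CPM in TMRM-low libraries. Without Nkg7, which rose and is the most abundant, the other 8 summed to 63.6 to 73.3 CPM in TMRM-high libraries, against 161 to 195 CPM in TMRM-low libraries, the opposite direction. Much of that sum is Cd3d, with 43.3 to 50.2 CPM in TMRM-high libraries, against 110 to 141 CPM in TMRM-low libraries. Of the 8, Cd8a, Gzma and Il7r had log2 fold changes above 0 (0.31, 1.01 and 0.58) without passing, and 5 lay below 0. The part of these lists in the differences of the replication genes was not tested.

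With the 3 TMRM-high libraries summed into 1, so that the spread comes from the TMRM-low libraries, none of the 39 passed and 3 had an unadjusted p below 0.05; Rrm2 (log2 fold change 0.92, adjusted p = 0.156), Pcna (0.49, 0.282), Gmnn (0.58, 0.672) and Mcm5 (-0.28, 0.989) kept their direction. Rrm2 and Pcna passed in every other alternative tried.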

How the data were processed

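Per the labels' protocols, cDNA of full-length type was made from the RNA of 1500 sorted cells, amplified by 13 PCR cycles and sequenced as 150-base pairs; nothing in this chemistry keeps strand or counts molecules. The submitters' processing notes list the read trimmer Trim Galore (0.5.0), the quantifier Salmon (0.03.1, as listed) and the build GRCm38. Which transcript set was quantified and how genes were summed is not stated there. The deposited values are the authors' estimated counts per gene, not scaled to depth; 27% are not whole, and all were rounded here. Salmon divides reads between similar transcripts, so shared 31-base words (GENCODE M21 transcripts) are given where they matter.

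Symbols came from the ID table and positions from GENCODE M21. edgeR 4.0.16 (filterByExpr, TMM, robust glmQLFit and glmQLFTest, in R 4.3.3) was fitted over all genes with the group as its term and checked on simulated counts. The simulated counts had the same spread in both groups, so the check does not cover the unequal spread of these libraries. Levels per kb use the principal transcript by APPRIS. The SE is the log2 fold change over the square root of F. Alternatives used DESeq2 1.42.0 and limma 3.58.1. Members, lists and tests were chosen with earlier results of these data known. Genes were named by call, by non-overlapping groups and by highest level and largest change in a role group; others are given by range. The ratios, the Mcm6 promoter and the run it shares with Mcm5 were chosen after values were seen.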

Additional observations from a re-analysis of the deposited data

How the results depend on the processing

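Median log2 fold changes of the 39 genes stayed between 0.09 and 0.18 in 15 alternatives. The numbers called higher and lower were 3 and 1 with RLE, upper-quartile and total-count scaling and with the stricter filter, 4 and 1 with limma voom and 5 and 3 with DESeq2. Lower calls numbered 0 without a low-count filter and 2 at an adjusted p of 0.10. With 1 library left out they were 2 to 5 higher and 0 to 3 lower. With the TMRM-high libraries summed they were 0 and 0, with 3 of 39 at an unadjusted p below 0.05.

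Over all genes, 798 higher and 700 lower became 1324 and 1337 with DESeq2, 86 and 42 with the libraries summed, 1138 lower at an adjusted p of 0.10, and 250 to 1398 higher and 181 to 1174 lower with 1 library left out. Of the 74 other pathway genes, 17 and 5 were called with DESeq2, 0 and 0 with the libraries summed, 4 lower at 0.10, and 0 to 17 higher and 1 to 4 lower with 1 library left out; the cause was not tested. Summing and leaving out a library lower the number of samples.

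Deviations of same-numbered libraries from their group means had correlations of -0.0139, 0.0165 and 0.0210. The labels do not say whether an equal number marks a pair, and such small correlations cannot exclude it. With the replicate number as a block, 3 of the 39 were higher and 0 lower, and 582 and 449 over all genes. The lowest estimated count of a member in a library was 77, and whether depth limits these genes was not tested.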
